A study of Sus scrofa with 63 samples.

Results

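The genes described here encode hormones of the enteroendocrine cells of the gut, together with the granule protein of those cells. The list held 10 genes, namely GIP, CCK, GCG, PYY, SST, NTS, MLN, GHRL, SCT and CHGA, and a probe belonged to it when the gene name given by the array equalled one of these symbols in any letter case. Of the 60305 probes of the array, 18 probes of 8 genes were found in this way, and all 18 passed the filter on dim probes that 40515 probes of the array passed. No probe carried the gene name GIP or PYY. The brightest probe of each gene over the 63 arrays was taken as its lead probe. After the file had been seen, 1 probe described as peptide YY and a second probe described as the neurotensin precursor were found by their descriptions, and they are named below as lying outside the list.

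The samples are RNA of the middle jejunum of 63 male pig fetuses, each hybridised to 1 array in 1 colour. Meishan (MS) and Large White (LW) sows were inseminated with mixed semen of both breeds, so that a litter held purebred and crossbred fetuses. The groups at gestational day 90 were 9 LW, 6 MS, 9 LWMS and 8 MSLW fetuses, and at day 110 they were 9 LW, 7 MS, 9 LWMS and 6 MSLW fetuses. LWMS fetuses had an LW sire and an MS sow, and MSLW fetuses an MS sire and an LW sow. No fetus was treated and none carried a transgene, and day 110 lies shortly before birth in the pig. The labels do not tie fetuses to sows, so litter mates were counted as separate samples, and p-values measure the spread between fetuses without the sow.

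Enteroendocrine cells are rare cells of the gut epithelium that sense nutrients and release peptide hormones at their base. Each hormone gene is used mainly in certain stretches of the gut: in the pig as in other mammals, ghrelin, motilin, secretin and cholecystokinin are hormones of the proximal gut, while the glucagon gene, peptide YY and neurotensin are used most toward the distal gut, and somatostatin is found along its length. In whole jejunum, fewer cells of a type and less RNA per cell cannot be told apart.

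The scanner files give the sequence of each 60-base probe, and those below show what the member probes read. The capitals in the somatostatin probe mark the stop codon, which ends the frame that opens at its first base. Somatostatin lies at the end of its precursor, so this probe covers the hormone itself.
SST, probe 3 by brightness: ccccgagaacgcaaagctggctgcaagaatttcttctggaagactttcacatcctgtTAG
MLN, lead probe: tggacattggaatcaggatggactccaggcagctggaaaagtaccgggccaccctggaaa
MLN, second probe: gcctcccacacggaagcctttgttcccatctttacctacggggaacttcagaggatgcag
CHGA, probe 3 by brightness: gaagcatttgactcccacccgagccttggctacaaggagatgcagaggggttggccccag
CHGA, probe 4 by brightness: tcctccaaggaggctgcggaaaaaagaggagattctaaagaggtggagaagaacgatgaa
The MLN and CHGA probes are shown because the sow comparison turns on the former, and the disagreement between probes on the latter. The lead and second MLN probes shared no run longer than 6 bases and correlated at r = 0.99 over the 63 fetuses.

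Other members were read near the end of the transcript. The letters AATAAA or ATTAAA, which are the usual signals for the poly(A) tail, stood in 7 of the 18 member probes against 14.2% of all probes, searched on the printed strand. For GHRL, SCT, CCK, GCG and NTS, the last 30 bases of the probes named are shown, with these letters in capitals where they occur. The CCK sequence is that of probe 3 and not of the lead probe, which the age comparison below used.
GHRL: gcctgggaggtgAATAAAcattcagactgg
SCT: ggcatcAATAAAggagaaattcatcccgcc
CCK, probe 3 by brightness: tgctATTAAAgtgattttgttctgaaaaaa
GCG, lead probe: caaagataggcaAATAAAactttctagctc
NTS, lead probe: cctcttcaaagactgattaatgaattattg
NTS, probe found by its description: gcttttctgttaAATAAActtcatagccaa
The 2 NTS probes shared no run longer than 6 bases, and over the 63 fetuses their levels correlated at r = 0.96. The 3 CCK probes overlapped, with shared runs of 36 to 54 bases and r of 0.99 or above, so they are not separate measurements. The SST lead and second probes also overlapped, by a run of 46 bases, whereas probe 3 shared at most 7 bases with them and correlated with the lead at r = 0.96.

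Levels below are log2 signals relative to the 75th percentile of their array, so 0 is the level of that percentile. A level is compared only between fetuses and not between probes. The share of spots well above background ranged from 51.2 to 87.6% over the arrays, with a median of 66.7%, and no spot was saturated.

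One library stood apart from its label by its enterocyte and large bowel markers. Libraries of day 110 with a high stomach marker are named with those markers below. In fetus 632, an MS fetus of day 110, lactase (LCT), which digests milk sugar at the jejunal brush border, was at -1.31, against 1.06 to 6.44 in the other 62 fetuses. The lipid carrier genes FABP2 and APOA4 were at 0.20 and 0.77, also below all others, whose lowest levels were 2.28 and 2.46. CA1, a carbonic anhydrase of the large bowel, was at 3.98, against -7.76 to -1.39 elsewhere. The genes HOXD13 and HOXB13, which pattern the hindgut and large bowel and were chosen after the data were seen, were at -0.41 and 0.08, and their highest levels in the other fetuses were -2.48 and -3.97. The enterocyte markers of the jejunum were therefore lowest and the large bowel markers highest in this library, and results that rest on it are given with and without it. The choice to leave it out was made after seeing the data.

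CA1 was also raised in 4 other fetuses, though less. It was at -1.39 in LW fetus 469 and -1.68 in MSLW fetus 851 of day 110, and at -1.78 in MS fetus 532 and -1.99 in LW fetus 484 of day 90, while the next highest fetus was at -3.89. The mean of HOXD13 and HOXB13 lay between -4.28 and -3.55 in these 4, against -0.17 in fetus 632, and their enterocyte marker means, up to 6.36, were all above that of fetus 632, at -0.11. The pancreas marker means of fetuses 469, 851, 532 and 484 were -2.54, -1.09, -2.47 and -2.71. Their stomach marker means were -1.09, -3.11, -3.08 and -2.41, and each of these values was above its group median. Fetuses 469, 532 and 851 shared slide 2, and fetus 484 was on slide 7. Fetus 469 had the lowest share of spots well above background, at 51.2%. The part of the slide and of dim probes was not tested. NTS was at 0.56 in fetus 484 and -0.74 in fetus 851, the highest levels of day 90 and of day 110. It was at -0.67 in fetus 532 and -1.77 in fetus 469. Leaving out LW fetuses 484 and 469 was among the alternatives. Leaving out all 4, an alternative added after seeing the data, changed no count of lead probes passing in any comparison, and the values without them are given for NTS and MLN below.

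**Figure D1:**
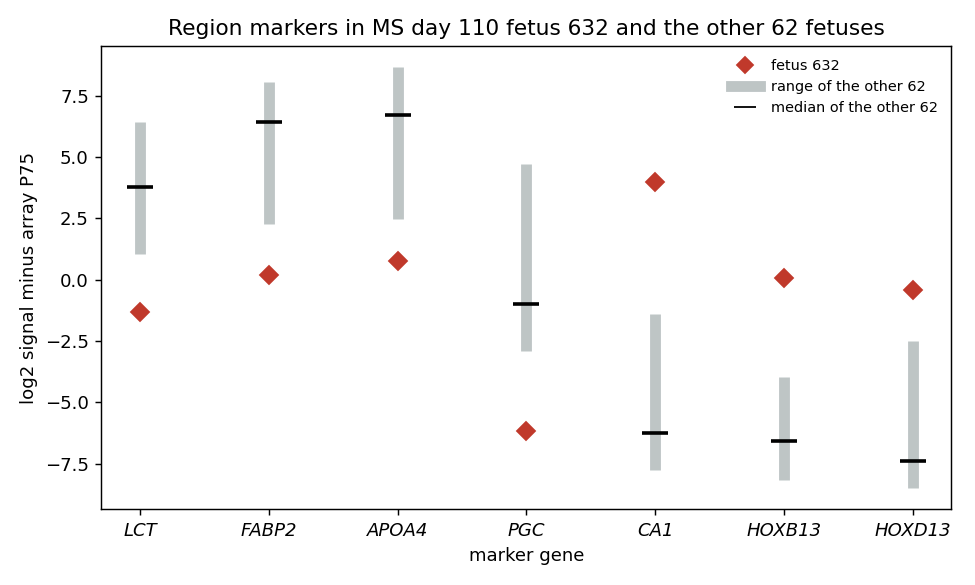
Log2 signal relative to the array's 75th percentile (y axis) of 7 region marker genes (x axis) in MS day 110 fetus 632 (diamonds) and in the other 62 fetuses (grey bars, range; black ticks, median). Fetus 632 lies below the range of the others for LCT, FABP2, APOA4 and PGC and above it for CA1, HOXB13 and HOXD13.

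The hormones of fetus 632 also lay apart from its group. GHRL was at -3.81, MLN at -1.10, SCT at -0.33 and CCK at -0.13, against lowest levels of 3.29, 2.74, 3.67 and 3.15 in the other 6 MS fetuses of day 110. GCG was at 3.69, while those 6 fetuses lay between -6.00 and -0.09. The 4 proximal hormones were thus far below their group and the glucagon gene far above it. NTS, though used most toward the distal gut, was not high, at -5.01 against a group median of -3.50. In the second CHGA probe the fetus was at 6.66, the highest level of its group, and the peptide YY probe was at 6.11.

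**Figure D2:**
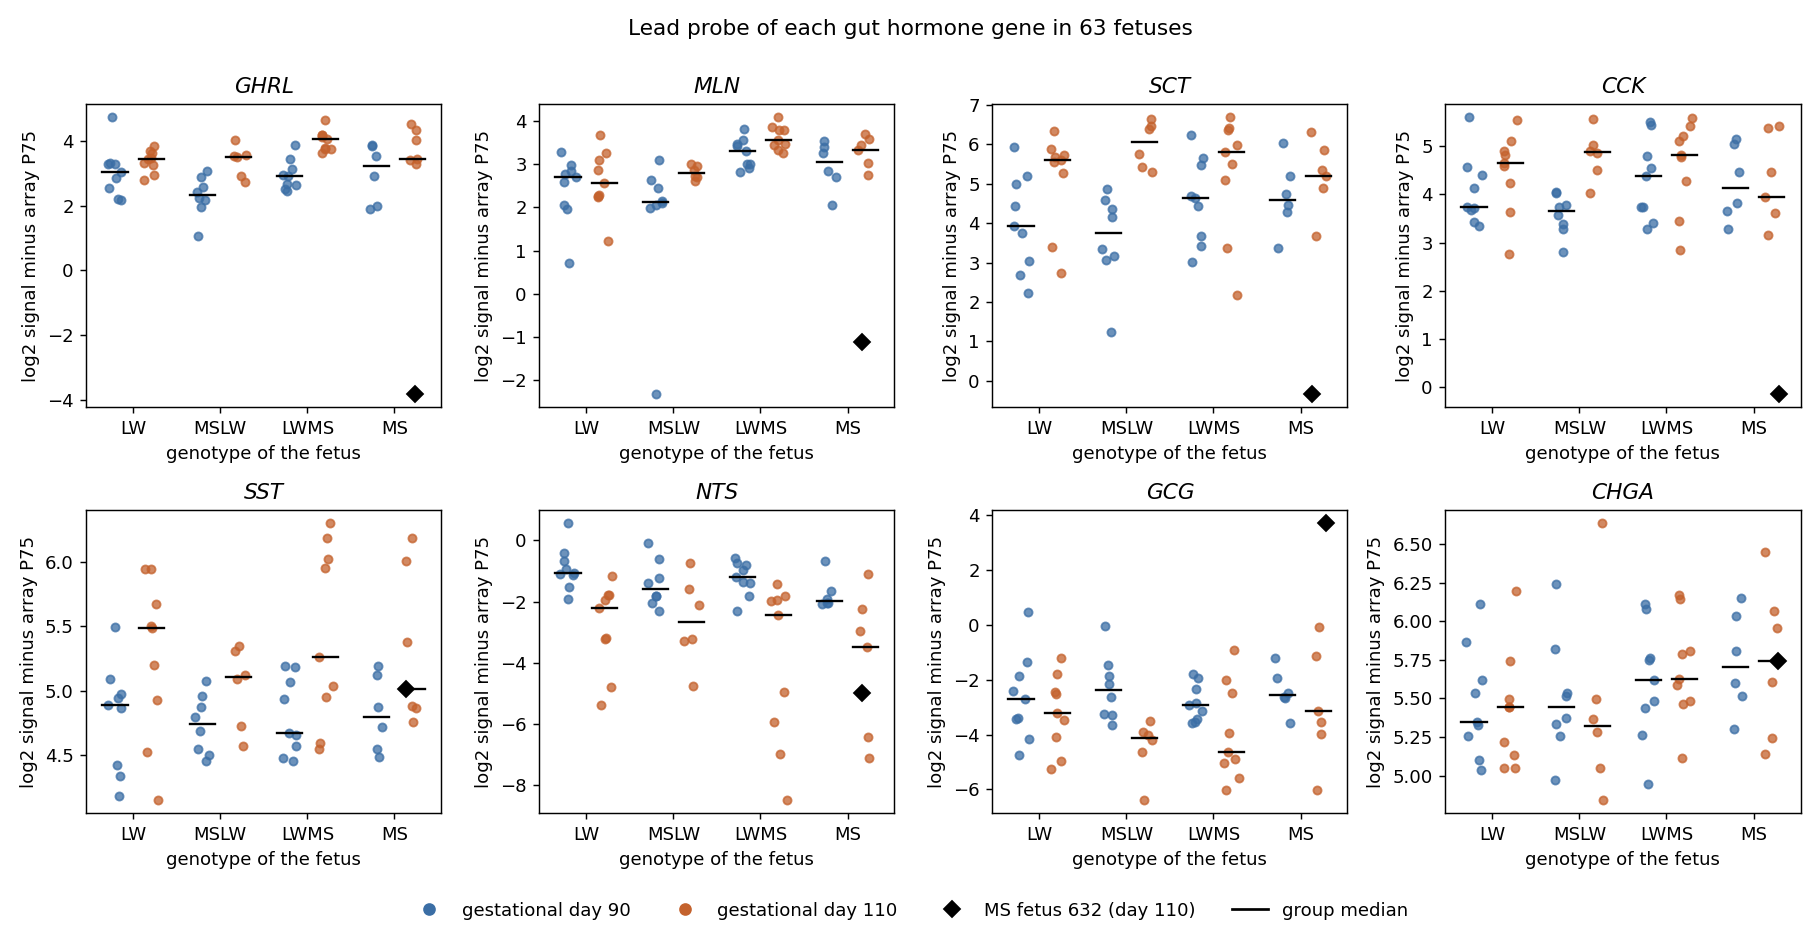
Log2 signal relative to the array's 75th percentile (y axis) of the lead probe of each of the 8 genes in the 4 genotypes (x axis), with 1 point per fetus (blue, day 90; orange, day 110), a bar at each group median and fetus 632 as a black diamond. The diamond lies apart from its group for GHRL, MLN, SCT, CCK and GCG, and NTS reaches from -8.48 to -0.74 at day 110 against -2.31 to 0.56 at day 90.

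The first question was whether the hormone genes changed between day 90 and day 110. Over the mean of the 4 genotypes, 1 of the 8 lead probes passed the threshold (limma, adjusted p of at most 0.01 and a log2 difference of at least 0.5), against 13.7% of all probes tested. Without fetus 632, 4 of the 8 passed, against 14.5% of all probes: NTS and GCG fell, and GHRL and SCT rose.

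Neurotensin, a peptide released on fat in the gut lumen that slows motility, was the member with the largest change. At day 90 the NTS lead probe ranged from -2.31 to 0.56 over 32 fetuses, with a median of -1.30. At day 110 it ranged from -8.48 to -0.74 over 31 fetuses, with a median of -2.96. Of these 31 fetuses, 17 lay below every fetus of day 90 and the rest overlapped, so the group spread out as it fell. The 17 included fetus 632 and every fetus named below for a high level of the stomach marker PGC. The fall was by 2.05 ± 0.37 on the log2 scale (SE, adjusted p = 1.06e-05), and the probe found by its description fell by 2.15 ± 0.39 (adjusted p = 9.70e-06). Within each of the 8 slides the day 110 fetuses were lower on average, by 0.19 to 3.71 on the log2 scale. At day 90 the lead probe was well above background on all 32 arrays and at day 110 on 25 of 31, so the lowest values are dim. Without fetus 632 the fall was by 2.01. Without fetuses 469, 484, 532 and 851 it was by 2.08 (adjusted p = 1.91e-05), and the part of the large bowel markers in it was not tested.

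In LWMS fetuses the levels went from -2.31 to -0.57 (median -1.19) at day 90 to -8.48 to -1.43 (median -2.45) at day 110, which was the one fall in a single genotype to pass (-2.76 ± 0.69, adjusted p = 0.0025). It passed in 1 of 8 lead probes against 9.88% of all probes. LWMS fetuses 609, 622, 633 and 611 of day 110 were at -8.48, -6.99, -5.93 and -4.97. In them the stomach marker PGC, described below, was at 4.68, 3.48, 2.08 and 1.04. The other LWMS fetuses of day 110 had NTS from -2.45 to -1.43 and PGC from -2.88 to -1.89. The fall in LWMS fetuses was not tested without those with high PGC. In LW fetuses the medians were -1.06 and -2.19, in MS fetuses -1.99 and -3.50, and in MSLW fetuses -1.59 and -2.68. Their differences of -1.92, -2.31 and -1.21 did not pass (adjusted p = 0.061, 0.070 and 0.35). The probe was above background in 9 of 9 LW, 4 of 7 MS, 6 of 9 LWMS and 6 of 6 MSLW fetuses of day 110. The fall was not shown to differ between genotypes, since the interaction of genotype with age had an adjusted p of 0.93.

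Markers of the stomach ran against NTS. The list held 5 genes, of which 3 had a probe: GKN1, a protein of gastric mucus cells, TFF1, a trefoil peptide secreted by them, and GAST, the precursor of gastrin. TFF1 and GAST were the 2 that could be tested and both rose with age, by 1.46 and 2.05. The mean of the 3 genes ranged from -6.15 to -2.41 over the groups of day 90 and from -6.16 to 1.95 over those of day 110. By group at day 110 it spanned -5.51 to 0.79 in LW, -6.16 to 1.95 in MS, -5.55 to 1.27 in LWMS and -4.54 to -1.10 in MSLW fetuses. GKN1 was well above background on 1 array of day 90 and 9 of day 110. For TFF1 it was 9 of 32 arrays of day 90 and 19 of 31 of day 110, and for GAST 32 and 30. The mean thus holds many values near background for GKN1 and TFF1. GAST is also on the list of other gut peptides below, so a hormone gene is part of this mean and of the covariate made from it. After subtraction of the group means, NTS correlated with this mean at r = -0.66 over 63 fetuses and r = -0.70 without fetus 632. With the stomach mean as a covariate, chosen after seeing the data, the fall of NTS was by 1.12 (adjusted p = 0.0032), and by 0.96 without fetus 632 as well (adjusted p = 0.0095). NTS also correlated with the mean of the enteric neuron markers, at r = -0.61, and with that of the enterocyte markers, at r = 0.50. PGC, the pepsinogen C of the gastric glands, was added after the data were seen and did not pass. Its difference with age was 0.86 (adjusted p = 0.16), or 1.09 without fetus 632 (adjusted p = 0.047). The median of PGC went from -0.94 to 0.46 in LW fetuses, but from -1.09 to -1.60 in MS, from -0.87 to -1.89 in LWMS and from -0.88 to -1.45 in MSLW fetuses. Its highest levels at day 110 were 2.82, 4.73, 4.68 and 2.30 in these genotypes, against at most -0.23 at day 90. PGC was at 1.04 or above in LW fetuses 559, 572 and 575 and MS fetuses 623 and 627. So it was in LWMS fetuses 609, 611, 622 and 633 and MSLW fetuses 560 and 578, and elsewhere it was at most 0.79. The named fetuses had NTS from -8.48 to -3.20 and enterocyte marker means from 2.08 to 6.90. The fall was not tested without them. The correlation of PGC with NTS within groups was r = -0.72, or -0.83 without fetus 632. Fetus 632 was below background for GKN1, TFF1 and GAST. The part of the neuron and enterocyte markers in the fall was not tested.

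Somatostatin, which restrains the release of most other gut hormones, was higher at day 110. The SST lead probe ranged from 4.18 to 5.49 (median 4.83) at day 90 and from 4.15 to 6.30 (median 5.20) at day 110. At day 110, 10 of 31 fetuses lay above every fetus of day 90 and 1 lay below all of them. The difference of 0.46 ± 0.12 had an adjusted p of 0.0014 but stayed under the minimum of 0.5, so the gene was not called. It was 0.47 and 0.46 in the other 2 SST probes, and the day 110 fetuses were higher in all 8 slides. SST correlated with the mean of the stomach markers within groups at r = 0.71, and with that mean as a covariate the difference was 0.15 (adjusted p = 0.22).

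Peptide YY, which slows gastric emptying, could be described only by the probe outside the list. Its level ranged from 1.15 to 3.77 (median 2.39) at day 90 and from 1.04 to 7.56 (median 2.46) at day 110. Here 11 of 31 fetuses of day 110 lay above every fetus of day 90 and 3 lay below all of them, so the levels spread out. The difference of 0.70 ± 0.30 did not pass (adjusted p = 0.054). Its correlation with the stomach mean within groups was r = 0.83 without fetus 632, which had a high peptide YY and a low stomach mean, and r = 0.71 with it.

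**Figure D3:**
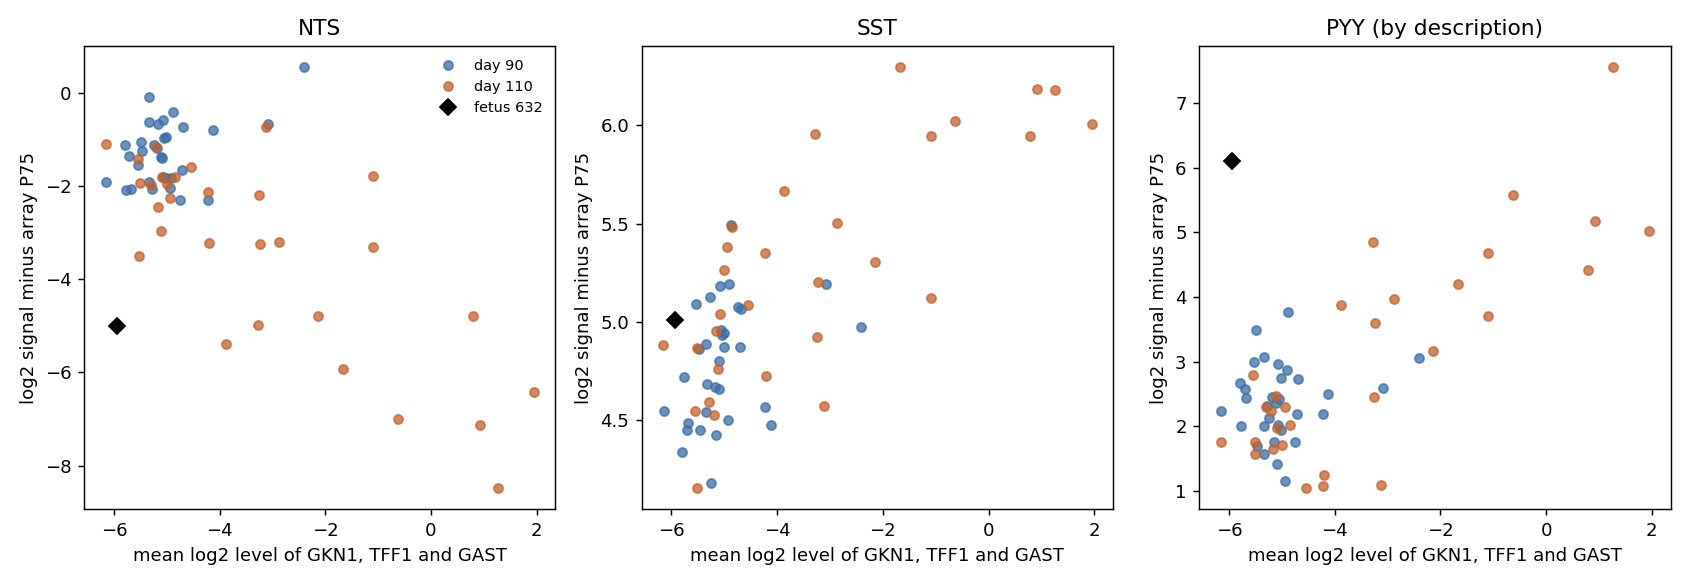
Log2 levels of the NTS and SST lead probes and of the probe described as peptide YY (y axes) against the mean log2 level of the stomach markers GKN1, TFF1 and GAST (x axes), with 1 point per fetus (blue, day 90; orange, day 110; diamond, fetus 632). The 32 fetuses of day 90 stay at stomach means of -2.41 or lower, while fetuses of day 110 reach 1.95, with lower NTS and higher SST and peptide YY toward the right.

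The glucagon gene, from which the gut makes glucagon-like peptides that raise insulin release and mucosal growth, was lower at day 110 in most fetuses. The GCG lead probe ranged from -4.75 to 0.46 (median -2.65) at day 90 and from -6.37 to 3.69 (median -3.92) at day 110. The highest value of day 110 is that of fetus 632, and 8 of 31 fetuses lay below every fetus of day 90. Over all 63 fetuses the difference of -0.86 ± 0.40 did not pass (adjusted p = 0.079). Without fetus 632 it was -1.10 ± 0.35 and passed (adjusted p = 0.0084). The second GCG probe gave -0.90 over 63 fetuses and -1.13 without fetus 632, which did not pass (adjusted p = 0.0103). Both GCG probes were dim: the lead probe was well above background on 28 of 31 arrays of day 110 and the second on 19. With the stomach mean as a covariate and without fetus 632 the difference was -0.89 and did not pass (adjusted p = 0.060).

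Ghrelin, the hormone of hunger and growth hormone release, is made mainly in the stomach and in smaller amounts in the upper intestine. The GHRL probe ranged from 1.06 to 4.73 (median 2.87) at day 90 and from -3.81 to 4.64 (median 3.64) at day 110. The lowest value was fetus 632, and the next lowest of day 110 was 2.74. The difference of 0.55 ± 0.28 over 63 fetuses did not pass (adjusted p = 0.11). Without fetus 632 it was 0.82 ± 0.14 and passed (adjusted p = 4.53e-06). It then passed in LWMS fetuses (1.06, adjusted p = 0.0021) and in MSLW fetuses (1.08, adjusted p = 0.0097). The SE of the mean difference was 0.28 with this library and 0.14 without it. In LWMS fetuses 2 of 8 lead probes, NTS and GHRL, then passed, against 11% of all probes. In LWMS fetuses the levels were 2.45 to 3.88 (median 2.91) at day 90 and 3.64 to 4.64 (median 4.07) at day 110, with a small overlap. In MSLW fetuses the medians were 2.34 and 3.52. With the stomach mean as a covariate and without fetus 632, the rise over the genotypes was 0.66 (adjusted p = 0.00044).

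Secretin, released on acid in the duodenum, drives bicarbonate secretion by the pancreas. The SCT probe ranged from 1.23 to 6.25 (median 4.40) at day 90 and from -0.33 to 6.68 (median 5.61) at day 110. At day 110, 8 of 31 fetuses lay above every fetus of day 90. The difference of 0.99 ± 0.33 did not pass over 63 fetuses (adjusted p = 0.014). It was 1.18 ± 0.29 without fetus 632 and passed (adjusted p = 0.00070). In MSLW fetuses the levels rose from 1.23 to 4.86 (median 3.75) at day 90 to 5.30 to 6.64 (median 6.07) at day 110, so the groups did not overlap. This difference of 2.39 passed only without fetus 632, when the adjusted p was 0.0041 in place of 0.017, and in MSLW fetuses 2 of 8 lead probes then passed against 6.69% of all probes. With the stomach mean as a covariate and without fetus 632, the SCT difference over the genotypes was 0.66 (adjusted p = 0.063).

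Cholecystokinin, which empties the gall bladder and stimulates the pancreas, and motilin, which starts the cleansing contractions of the fasting gut, did not pass. The CCK lead probe had medians of 3.76 at day 90 and 4.76 at day 110, and its difference was 0.35 ± 0.23 (adjusted p = 0.25), or 0.51 ± 0.19 without fetus 632 (adjusted p = 0.030). With the stomach mean as a covariate it was -0.16 over 63 fetuses. The MLN lead probe had medians of 2.83 and 3.11, and its difference was 0.32 ± 0.24 (adjusted p = 0.29). Without fetus 632 it was 0.48 (adjusted p = 0.044).

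Chromogranin A is the main soluble protein of the hormone granules and a general marker of enteroendocrine cells. Its 4 probes shared no run longer than 7 bases, and they disagreed. The lead probe correlated with the others at r = -0.33 to -0.19 over the fetuses, whereas the other 3 correlated with each other at 0.65 to 0.88. Of its 60 bases, 73.3% were G or C. With age the lead probe differed by -0.00 ± 0.10, the second by -0.12 ± 0.11, probe 3 by -0.25 ± 0.13 and probe 4 by -0.36 ± 0.14, and none passed (adjusted p = 0.98, 0.44, 0.14 and 0.040). Since the lead probe ran against the other 3, it is uncertain which of them follow CHGA, and the counts over 8 lead probes include it. Neither the lead nor the second CHGA probe passed in any contrast over 63 fetuses or without fetus 632. Without fetus 632, probe 3 differed with age by -0.30 (adjusted p = 0.056) and probe 4 by -0.42 (adjusted p = 0.0094). Probe 4 thus met the limit on the adjusted p but stayed under the minimum difference, and it was not called. The second probe then differed by -0.17 (adjusted p = 0.22). By genotype, probe 4 then differed by 0.05 in LW, -0.42 in MS, -0.65 in LWMS and -0.67 in MSLW fetuses, and none passed. Over 63 fetuses, the 95% interval of the second probe, -0.35 to 0.11, is the range of change that this bright probe leaves.

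**Figure D4:**
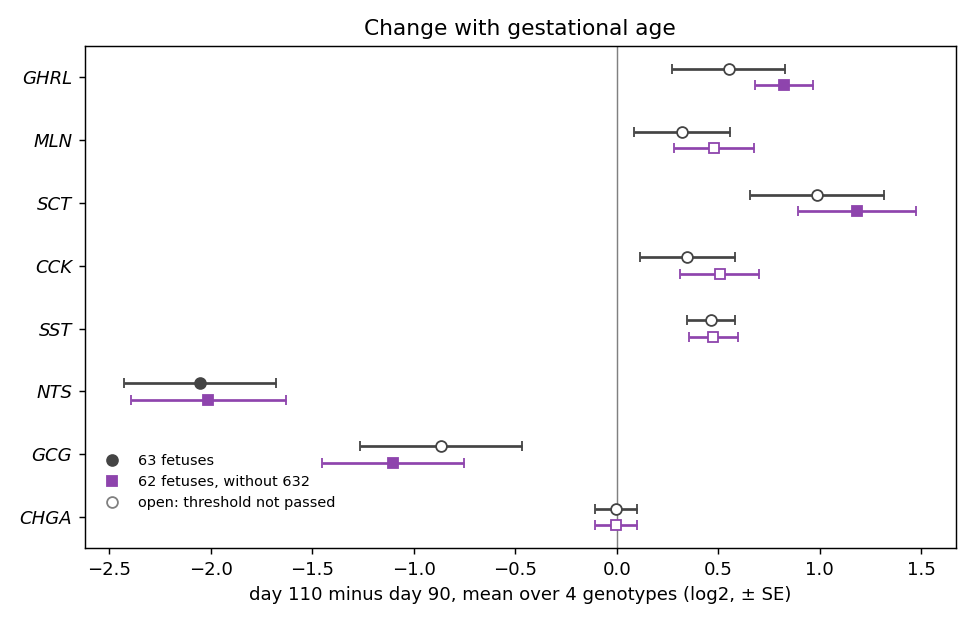
Difference between day 110 and day 90 (x axis, log2, mean over the 4 genotypes, bars ± SE) for the lead probe of each gene (y axis) over 63 fetuses (circles) and without fetus 632 (squares), with filled symbols where the threshold was passed. NTS is filled in both, and GHRL, SCT and GCG are filled only without fetus 632.

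The second question concerned the breed of the sow. With an MS sow, 1 of 8 lead probes passed (limma, adjusted p under 0.05), against 15.9% of all probes, and this was motilin. At day 90 the MLN lead probe ranged from 2.06 to 3.80 (median 3.27) in 15 fetuses of MS sows and from -2.30 to 3.27 (median 2.46) in 17 fetuses of LW sows. At day 110 it ranged from -1.10 to 4.08 (median 3.46) in 16 fetuses of MS sows and from 1.23 to 3.68 (median 2.73) in 15 fetuses of LW sows. MLN was higher with an MS sow at both days, with overlap between the groups. The difference was 0.72 ± 0.24 in the lead probe (adjusted p = 0.028) and 0.73 ± 0.23 in the second (adjusted p = 0.023), while the dim probe 3 gave 0.28 (adjusted p = 0.21). The call was lost with quantile normalization (0.60, adjusted p = 0.081) and in the deposited log2 table (0.60, adjusted p = 0.057). Among markers of other cell types, S100B of glia was higher with an MS sow by 0.44 and UCHL1 of neurons lower by 0.32, and their part was not tested. By group, the median of LWMS fetuses was 3.32 at day 90 and 3.55 at day 110, of MS fetuses 3.06 and 3.33, of LW fetuses 2.71 and 2.56, and of MSLW fetuses 2.12 and 2.80.

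The low ends of these ranges were 2 single fetuses. MSLW fetus 450 of day 90 had MLN at -2.30, where the next lowest of its group was 1.99, and also the lowest GHRL and SCT of day 90, at 1.06 and 1.23. Its CCK was the lowest of day 90 too, at 2.80, while its GCG and NTS, at -0.04 and -0.09, were the highest of its group. The mean of its smooth muscle markers was 5.71, the highest of its group. That of its enterocyte markers was 5.49, above the group median of 5.38. Without fetus 450 the sow difference of MLN was 0.58 (adjusted p = 0.030), and without fetus 632 it was 0.88 (adjusted p = 0.00085). Without fetuses 469, 484, 532 and 851 it was 0.69 (adjusted p = 0.045). Without fetus 632, GHRL was also higher with an MS sow, by 0.43 ± 0.14 (adjusted p = 0.027), against 0.16 over 63 fetuses (adjusted p = 0.74). Then 2 of 8 lead probes passed, against 21.2% of all probes. LCT of enterocytes (0.55), the carriers SLC5A1 (0.56) and SLC15A1 (0.62), NR1H4 (0.52), ANPEP (0.43) and MME (0.68) also passed as higher with an MS sow without this fetus and not with it, and their part was not tested. NTS was lower with an MS sow by a difference of -0.81 ± 0.37 that did not pass (adjusted p = 0.13), and that passed with the stomach mean as a covariate (-0.86, adjusted p = 0.027). In the interaction of the sow with age 0 of 8 lead probes passed in limma, against 0.388% of all probes. SCT and CCK had an unadjusted p under 0.05 there, with interactions of -1.53 and -0.94, and an ordinary linear model called 0. Without fetus 632 these were -1.14 and -0.62, with unadjusted p of 0.054 and 0.11.

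No member passed in the other contrasts of breed. Between purebred MS and LW fetuses, 0 of 8 lead probes passed at day 90, against 3.59% of all probes, and the differences lay between -0.83 for NTS and 0.65 for SCT. At day 110 it was 0 of 8, against 5.01% of all probes, with differences from -1.22 for NTS to 1.18 for GCG. Without fetus 632 they ran from -1.06 for NTS to 0.69 for MLN and none passed, GCG was at 0.23, and GHRL and SCT turned from -0.63 and -0.71 to 0.47 and 0.08. The breed of the sire gave 0 of 8, against 6.97% of all probes, with differences from -0.49 for GHRL to 0.36 for GCG. Without fetus 632 none passed, GHRL was at -0.21 and GCG at 0.12, and the lowest was MLN at -0.27. In these 3 contrasts no lead probe had an unadjusted p under 0.05 in limma, and an ordinary linear model called 0 as well. The interaction of the sire with age called 0% of all probes, and that of genotype with age called 0.0222% and no member, with no unadjusted p under 0.05 among the 8 in either. Within LW, MS and MSLW fetuses, 0 of 8 lead probes passed with age, against 4.77%, 3.17% and 5.41% of all probes, while 2, 1 and 4 had an unadjusted p under 0.05. In MS fetuses leaving out fetus 632 turned the sign of 5 of the 8 differences with age, of which none passed either way: GHRL went from -0.27 to 0.83, SCT from -0.25 to 0.54, CCK from -0.54 to 0.10, MLN from -0.30 to 0.33 and GCG from 0.38 to -0.57. Over any difference between the 8 groups, NTS alone of the 8 passed the F test (adjusted p = 0.00031), against 28.8% of all probes, and without fetus 632 it was joined by GHRL and MLN, against 31.8%.

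The members also varied together between fetuses of the same group. After the group means were subtracted, and without fetus 632, SCT correlated with CCK at r = 0.87 and with SST at r = 0.80, and CCK correlated with SST at r = 0.84 over 62 fetuses. NTS ran against the peptide YY probe, at r = -0.77, and against SST, at r = -0.62. GCG ran against SCT at r = -0.51, and the highest correlation of MLN was r = 0.38, with GHRL. With fetus 632 the correlation of GHRL with MLN was 0.66 and that of CCK with MLN 0.47 in place of 0.19. These fetuses share litters and arrays of common slides, and the values are given as a description. Without fetus 632 the stomach mean also correlated within groups with peptide YY (0.83), SST (0.71), CCK (0.58), SCT (0.46) and NTS (-0.70). For GHRL, MLN, GCG and the lead CHGA probe it was 0.28, -0.01, -0.15 and -0.20. The part of the stomach markers in the correlations between members was not tested.

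**Figure D5:**
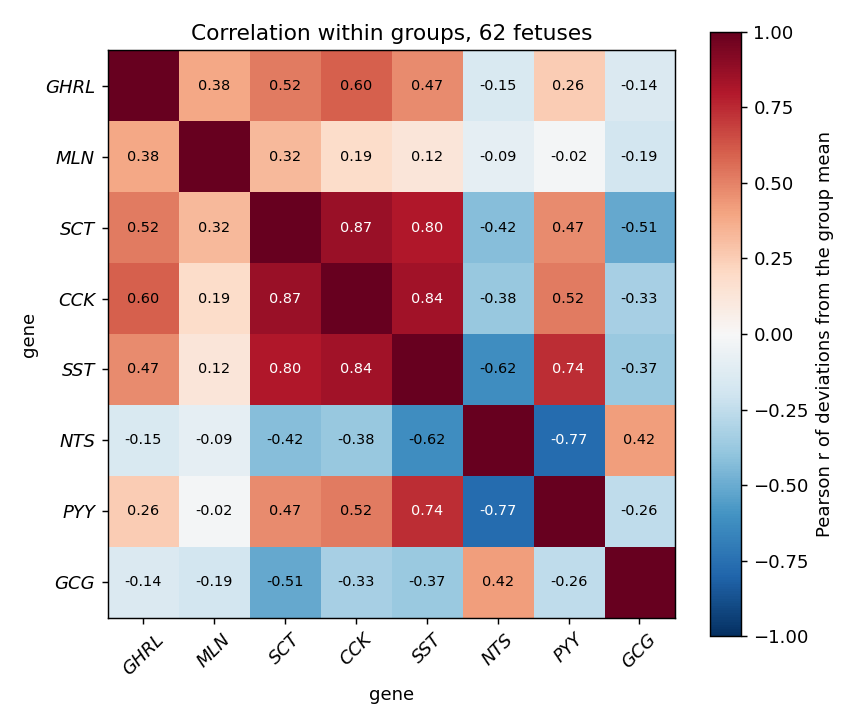
Pearson correlation (colour and number) between the lead probes of 7 genes and the peptide YY probe (both axes) over 62 fetuses, after subtraction of each group mean and without fetus 632. SCT, CCK and SST form a block of 0.80 to 0.87, and NTS is negative with SST and peptide YY.

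The genes most like each member within groups, by Pearson's r of the deviations from the group means over 63 fetuses, were these. SCT was closest to PDX1, a homeodomain factor of the duodenum and pancreas, at r = 0.84, then to TCN1, a vitamin B12 binding protein, and F12. CCK was closest to TCN1, at 0.88, then to PDX1 and CFB. MLN was closest to the trypsin inhibitor gene SPINK1, at 0.83, then to C4BPA and APCS. NTS was closest to PHF10, at 0.83, then to PLA2G7 and SLC38A7. Without fetus 632, PDX1, SPINK1 and PHF10 were still the closest to SCT, MLN and NTS, at 0.78, 0.77 and 0.83, while LGALS4 at 0.85 came before TCN1 at 0.81 for CCK.

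For the others the order rested more on fetus 632. GHRL was closest to the chemokine gene CCL25, at 0.92, then to S100G and TTR, but without fetus 632 to GNB2, at 0.73. GCG was closest to the carbonic anhydrase gene CA4, at 0.72, then to PLOD2 and PKIG, and without fetus 632 to FXYD2, at 0.64. SST was closest to the intrinsic factor gene, named GIF on the array, at 0.81, then to EGFL8 and HIGD1B, and without fetus 632 to BACE2, at 0.86. The lead CHGA probe was closest to OSBPL5, at 0.98 with and without fetus 632, then to TP23 and FZD8. The genes named without fetus 632 lie outside the rule for named genes and were chosen after the data were seen.

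Genes that specify, fill and answer to enteroendocrine cells were read from lists with the same thresholds. The counts stand against 13.7% of all probes passing with age, 15.9% with the sow, 6.97% with the sire and 5.01% for MS against LW fetuses of day 110, and the lists are short, so counts of 1 or 2 near these shares are given as description. Of 22 transcription factors of these cells, 14 had a probe and 9 were tested, and 1 of 9 rose with age, against 13.7% of all probes, and none fell: PDX1, by 0.999 (adjusted p = 0.0019). NEUROD1, PAX6, NKX2-2 and RFX6, which drive the endocrine fate, differed by -0.21, 0.15, 0.21 and -0.27 and did not pass. The median of the 9 was -0.03, against -0.02 over all probes. Of 14 tested genes for granules and prohormone processing, none rose and 2 of 14 fell, against 13.7% of all probes, CPE, the carboxypeptidase that trims peptide hormones, by 0.63 and SCG5, the chaperone of a prohormone convertase, by 0.51, and the list median was -0.17. ENO2, an enolase of neurons and endocrine cells, joined them without fetus 632, at -0.51. The enteric neuron markers, which share such granule genes, moved alike: 3 of 4 fell, ELAVL4, PRPH and UCHL1, by 0.63, 0.62 and 0.64, and their part in the fall of CPE and SCG5 was not tested. CHGB, the second chromogranin, differed by 0.23 and did not pass. Of the 4 tested genes for serotonin, none passed with age, and MAOA, which breaks serotonin down, was higher with an MS sow by 0.26.

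Among 10 tested genes for other gut peptides, 2 rose and 3 fell with age, against 13.7% of all probes in both directions, and the median was -0.25. GAST, the precursor of gastrin, rose by 2.05 and ADM, the vessel-relaxing adrenomedullin, by 0.60. GUCA2A and GUCA2B, the guanylins that drive salt and water secretion, fell by 0.93 and 1.25, and ADCYAP1, a neuropeptide, fell by 1.07. With the sow 4 of the 10 passed, against 15.9% of all probes. GUCA2A and GUCA2B were higher with an MS sow, by 0.66 and 0.47, as was ADM by 0.30, and NPY, a peptide of nerves, was lower by 0.63.

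Of 7 tested hormone receptors, SSTR3 rose by 0.69 and SSTR5 fell by 1.19 with age, both of them receptors for somatostatin, which is 2 of 7 against 13.7% of all probes. SSTR3 was also higher with an MS sow, by 0.33, and in MS than in LW fetuses of day 110, by 0.78 (adjusted p = 0.0061), the one of 7 to pass there against 5.01% of all probes. SORT1, which binds neurotensin, was higher with an MS sow by 0.25, and SSTR1 was lower by 0.81. SCTR, the secretin receptor, and GLP2R, which answers to a product of the glucagon gene, differed with age by 0.42 and 0.37, under the threshold. The median of the list with age was 0.37.

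Of 6 tested enzymes that cut or modify the hormones, DPP4, which inactivates incretins, rose by 1.70 and ACE by 0.81, while ANPEP fell by 0.59 and CTSC by 0.79, and the median was 0.02. These are 4 of 6, against 13.7% of all probes. ANPEP lost its call without fetus 632 (-0.49). ACE was also higher with an MS sow, by 0.53 (adjusted p = 0.045). Of 6 tested nutrient sensors and carriers, SLC5A1, the glucose carrier whose transport triggers incretin release, rose by 1.41, as 1 of 6 against 13.7% of all probes, and the median was 0.19. SLC15A1, the peptide carrier, differed by 0.52 and passed only without fetus 632, at 0.71. NR1H4, a bile acid receptor, was higher with an MS sire by 0.60, as 1 of 6 against 6.97% of all probes.

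The remaining markers of other cell types gave these counts with age, against 13.7% of all probes. LCT was the one of 3 enterocyte markers that rose, by 1.37. Neither the 4 smooth muscle, the 3 glial nor the 4 leukocyte markers passed. Both blood markers fell, HBB by 1.68 and AHSP by 1.80. Of 2 tested pancreas markers, INS rose by 4.18 and CELA1 did not pass. INS was well above background on 11 of 32 arrays of day 90 and 26 of 31 of day 110, so most values of day 90 are dim. The lipase gene PNLIP was well above background on 4 arrays of day 90 and 3 of day 110. CA1, the large bowel marker with a probe, was well above background in 9 of the 62 other fetuses. The part of these markers in the results for the hormones was not tested.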

How the data were processed

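RNA of 63 jejunum samples was hybridised to 1-colour Agilent arrays on 8 slides scanned on 1 day. Per the file headers, the authors quantified them with Agilent Feature Extraction 10.10.1.1, and the deposited scanner files give spot intensity, background and flags. The deposited series table holds 39446 probes, which the authors had passed through quality control and normalization between arrays and log2-transformed; the normalization method is not given in the sources used here. It served as an alternative.

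From the processed signal intensity, log2 values were taken and the 75th percentile of each array was subtracted. Outlier spots were set to missing, which touched 2775 tested probes, and the 2 spots of a repeated probe were averaged. A probe was tested if it was well above background on 75% of the arrays of at least 1 group. A model of 8 group means was fitted over 40515 probes with limma 3.58.1 in R 4.3.3, and p-values were adjusted by Benjamini and Hochberg over all of them. The study kept the sow as a random effect, which the labels do not allow here. The thresholds were an adjusted p of 0.01 with a log2 difference of 0.5 for age and for MS against LW, 0.05 for sow and sire, and 0.01 for F tests. The fit was tested on simulated data.

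Text names all member probes; from each gene list the called genes, at most 8 by size of difference and by the brightest probe; and for each member the 3 genes with the highest within-group correlation. Members and lists were chosen with earlier results of these data known. Of the 18 member probes, 8 have an accession in the RefSeq table (Sscrofa11.1), all with the same symbol. The array's genome build was not given, so no coordinates are printed. Alternatives changed the background correction, scaling, filter, slide, array weights, test, probe or fetuses. Leaving out fetus 632, fetus 450 or fetuses 469, 484, 532 and 851, and the stomach covariate were added after seeing the data. Each fetus has its own number, so no pairing arises.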

Additional observations from a re-analysis of the deposited data

Results flagged for a closer look

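A single fetus lay far from the rest of its group in 8 of the 64 combinations of a lead probe and a group, by the ratio of its gap to the range of the group. A chance rate of about 1 in 20 holds for independent combinations. These share fetuses, so no excess is read from the count. Fetus 632 (MS, day 110) accounted for 4 of the 8, with GHRL at -3.81, MLN at -1.10, CCK at -0.13 and SCT at -0.33, where the nearest fetuses of the group were at 3.29, 2.74, 3.15 and 3.67. MSLW fetus 450 of day 90 had MLN at -2.30, against 1.99 in the next. MS fetus 532 of day 90 had NTS at -0.67, above the next at -1.66, and its CA1, at -1.78, was among the 5 highest of the 63 fetuses; the part of large bowel markers was not tested. LW fetus 462 of day 90 had GHRL at 4.73, against 3.33 in the next. MSLW fetus 476 of day 110 had the lead CHGA probe at 6.63, against 5.50 in the next, and this probe did not follow the other 3 probes of the gene.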

How the results depend on the processing

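Of 208 counts of lead probes passing under an alternative, 186 stayed within 1.5 times the main count. Most comparisons had a main count of 0, so this share says little about those with a call. With age over the genotypes (1 of 8), the count was 2 with median centring and with no minimum difference (13.4% and 28.5% of all probes), 4 with array weights (16.5%), 4 without fetus 632 (14.5%), 2 without fetus 632 with the stomach covariate (18.7%), and 0 with a filter on all arrays, which NTS did not pass (11.8%). That filter also gave 0 for LWMS and for any group (1 of 8 each). For LWMS, array weights, leaving out fetus 632 and that with the covariate each gave 2 (14.8%, 11% and 15.4%). For MSLW (0 of 8), leaving out fetus 632 gave 2 (6.69%). For any group, array weights gave 5 (55.6%) and leaving out fetus 632 gave 3 (31.8%). For the sow (1 of 8), the count was 0 in the authors' values and with quantile normalization (15.2% and 12.5%), 2 with median centring, a slide block, array weights, the stomach covariate and without fetus 632 (15.3%, 19.1%, 32.7%, 17.3% and 21.2%), and 3 without fetus 632 with the covariate (24.5%). The causes were not tested, apart from the smaller number of probes under the filter.

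Direction was followed under all alternatives for 18 differences: age over the genotypes for 8 genes, NTS with age in each genotype, GHRL in LWMS and MSLW, SCT in MSLW, and the sow for MLN, GHRL and NTS. Of their 301 values, 273 kept direction and call, 18 gained and 3 lost a call, and 7 changed sign. The 7 were CCK with age under the stomach covariate (-0.16), and the lead CHGA probe with age under median centring (0.039), a slide block (0.0071), leaving out LW fetuses 484 and 469 (0.015), leaving out 532 and 851 as well (0.012), and the covariate with and without fetus 632 (0.071 and 0.078). The fall of NTS with age passed in every alternative that tested it, between -2.15 and -0.96. Over 11 contrasts of 8 lead probes, leaving out fetus 632 turned the sign of 12 of 88 differences, none of them called either way, and 5 of these lay in MS fetuses with age and 2 in MS against LW at day 110. Purebred fetuses alone called no member. Over all probes, 5569 passed with age in the main setting, 3164 with normexp, 3145 with the filter on all arrays and 11543 with no minimum difference, and 6446 passed for the sow against 13252 with array weights. No paired analysis was possible because the fetuses carry no shared numbers. NTS and GCG at day 110 lie near background, which limits how far their lowest levels can be told apart.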
